A study of Mus musculus with 2 samples.

Results

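The nuclear genes for subunits of the respiratory chain and of ATP synthase were compared between mouse bone marrow cells grown with GM-CSF and IL-6 and cells grown with GM-CSF only. Members were the genes whose RefSeq symbol names a subunit of complexes I to V, cytochrome c1 or cytochrome c, with the complex I assembly factors left out, and 87 of the 20143 named genes on the array met this rule. The plus IL-6 culture (C57BL/6 bone marrow cells, 40 ng/ml GM-CSF, 40 ng/ml IL-6) and the GM-CSF only culture (C57BL/6 bone marrow cells, 40 ng/ml GM-CSF) were both kept for 4 days in medium with 5% serum, and no further agent or allele is named for either. Each gave 1 RNA sample on 1 Agilent one-colour array, and the labels name the induced cells myeloid-derived suppressor cells (MDSCs). The sources used here do not give the age or number of the mice. With 1 array a condition there was no replicate and no test, so no p-value is given. The values are averages over the collected cells, and fewer cells of a type and less RNA per cell cannot be told apart.

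The respiratory chain sits in the inner mitochondrial membrane. Complex I takes electrons from NADH and complex II from succinate, both pass them to ubiquinone, complex III hands them to cytochrome c, and complex IV gives them to oxygen. Protons pumped on the way drive ATP synthase, also called complex V. Most subunits are encoded in the nucleus, and those of mitochondrial DNA were not analysed here. In myeloid cells the balance between this chain and glycolysis shifts with activation, and neutrophils are known to lean on glycolysis.

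The subunit genes differed little between the cultures. Of the 87 genes, 83 were well above background on both arrays, 1 on the plus IL-6 array only and 3 on neither. Among the 83, 38 were higher and 45 lower with IL-6, where 43.8% of all 13843 measured genes were higher and 56.2% lower. Log2 ratios are the plus IL-6 value minus the other culture's, and the members' median was -0.018, against -0.022 for all measured genes. The members ran from -0.20 for *Ndufa1* to 0.36 for *Cox6a2*. No member reached 2-fold in either direction, a size that 0.282% of measured genes reached upward and 0.101% downward. At 1.2-fold, 1 member was higher, *Cox6a2*, and 0 were lower, against 6.36% and 5.97% of measured genes.

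Nearly all members were bright, with 82 of 83 above the 75th percentile of signal. Genes that bright are the nearer comparison, since dim probes scatter more. The 8049 genes above that level had a median of -0.029. Among them 40% were higher, 60% lower, 1.89% higher by 1.2-fold or more and 2.42% lower by as much. The SD of log2 ratios was 0.091 over the 83 members and 0.12 over 2738 other genes whose signal lay between the 10th and 90th percentiles of the members' own. Those other genes of like signal had a median of -0.037, and 62% of them were lower. A total of 76 members lay within 1.1-fold, a limit chosen after the values were seen. Past it were 5 members on the higher side and 2 on the lower side, sizes that 16.1% and 20.2% of all measured genes and 9.24% and 16.9% of the bright genes reached. Scaled signals of the members ran from 505.1 to 130516 with a median of 17869 in the plus IL-6 culture, and from 504.8 to 139508 with a median of 18837 in the GM-CSF only culture.

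**Figure D1:**
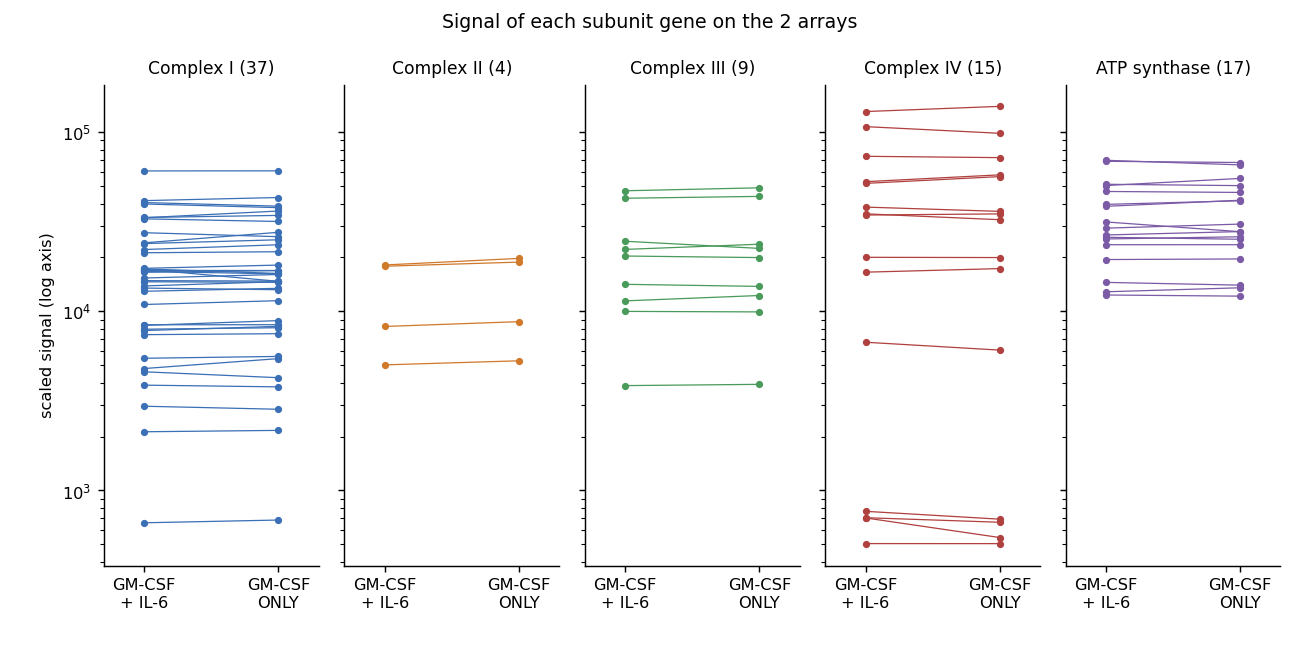
Scaled signal (log axis) of every subunit gene measured on both arrays except *Cycs*, the GM-CSF + IL-6 array on the left of each panel and the GM-CSF ONLY array on the right, 1 line per gene. The lines are close to level in all 5 complexes, and heights of different genes are not comparable because each has its own probe.

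The error after ± is a technical SD (1 array a condition), taken at the gene's level of signal from probes that the array carries in several spots. For a gene whose own probe has several spots, this SD was divided by the square root of their number. Error from spots is all it holds, and none from labelling or growth of the cells. Its median over members was 0.043, and 24 of the 83 log2 ratios lay more than 2 such SDs from 0. Of all measured genes 31.1% lay as far out, of the bright genes 39.7% and of the 2738 other genes of like signal 45.1%. How well different probes of a gene agreed gives a second measure of error. In 23 members with 2 or more measured probes (53 probes), the SD between probes of a gene was 0.071, and the SD between those genes was 0.068. In 9 of the 23 the probes lay on both sides of 0. In these 23 genes the 2 SDs were thus of similar size, but they are not fully alike. The SD between probes takes in dim probes, while the SD between genes uses the brightest probe of each gene. The widest range was 0.36, in *Cox7c*, which has a dim probe, against a median range of 0.072. Over all 83 members the SD between genes was 0.091.

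**Figure D2:**
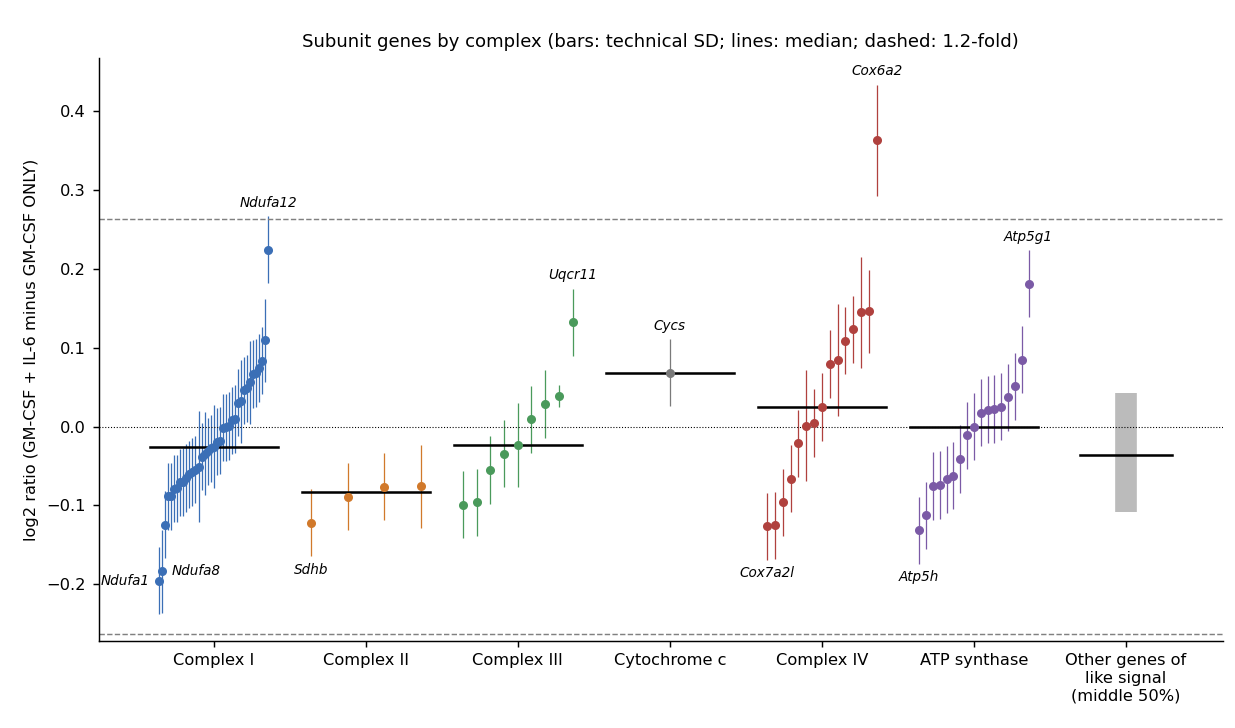
Log2 ratio (GM-CSF + IL-6 minus GM-CSF ONLY) of the 83 measured subunit genes by complex, with technical SD bars and the median of each complex as a line. The grey bar is the middle 50% of 2738 other genes of like signal, and dashed lines mark 1.2-fold. *Cox6a2*, at 0.36, is the 1 gene beyond them.

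Complex I, the NADH dehydrogenase, had 37 measured members, of which 14 were higher and 23 lower in the plus IL-6 culture. For this count and those of the other complexes, 43.8% of all measured genes were higher and 56.2% lower. Of the other genes of like signal, 62% were lower. The median of complex I was -0.026. The 7 core subunits, which hold the flavin, the iron-sulfur clusters and the quinone site, lay between -0.055 and 0.032 with a median of -0.018. *Ndufv1*, which binds NADH, had scaled signals of 14842 in the plus IL-6 culture and 14762 in the GM-CSF only culture (log2 ratio 0.0078 ± 0.043). *Ndufs1*, a carrier of several iron-sulfur clusters, had 7411 with IL-6 and 7504 without (-0.018 ± 0.043). *Ndufs7*, which carries the last cluster before the quinone, had 16533 with IL-6 and 16895 without (-0.031 ± 0.043). All 3 differences are smaller than the technical SD, and with normexp background correction the signs of *Ndufv1* (-0.067) and *Ndufs7* (0.062) were the other way.

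The 30 other members with complex I symbols ranged from -0.20 to 0.22, with 11 on the higher side and 19 on the lower. They are accessory subunits that stabilise the enzyme, except *Ndufa4*, which is found in complex IV. *Ndufa12* was 1.17-fold higher, at 17191 in the plus IL-6 culture and 14712 in the GM-CSF only culture (0.22 ± 0.043). *Ndufa11*, a membrane subunit, had 4598 with IL-6 and 4262 without (0.11 ± 0.053). *Ndufa1*, an X-linked membrane subunit, was 1.15-fold lower, at 24135 with IL-6 and 27636 without (-0.20 ± 0.043). *Ndufa8*, which faces the intermembrane space, was 1.14-fold lower, at 4795 with IL-6 and 5447 without (-0.18 ± 0.053). *Ndufa12*, *Ndufa1* and *Ndufa8* have 1 probe each, all in the first 48 of the 384 rows of spots, and *Ndufa12* lies in an area crowded with spots that differ between the arrays.

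Complex II, the succinate dehydrogenase that also serves the citric acid cycle, was lower with IL-6 in all 4 of its genes. By comparison, 56.2% of all measured genes and 60% of bright genes were lower. The median of the complex was -0.083, with a range from -0.12 to -0.076, and that of the other genes of like signal was -0.037. *Sdha*, the flavoprotein that oxidises succinate, had 8236 in the plus IL-6 culture and 8760 in the GM-CSF only culture (-0.089 ± 0.043). *Sdhb*, the iron-sulfur subunit, had 18156 with IL-6 and 19757 without (-0.12 ± 0.043), while its other probe gave 4931 with IL-6 and 4862 without (0.020 ± 0.053). *Sdhc* and *Sdhd* anchor the enzyme in the membrane. *Sdhc* had 5026 with IL-6 and 5297 without (-0.076 ± 0.053; -0.034 on its other probe). *Sdhd* had 17869 with IL-6 and 18837 without (-0.076 ± 0.043). All 4 were below 0 with quantile normalization, median centring, cyclic loess and the authors' values, and with normexp background correction *Sdhc* was at 0.028.

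The promoters of 3 complex II genes are shown because this was the complex whose measured genes all lay on one side of 0. They are RefSeq windows on GRCm38.p6 of 250 bases ending at the base before the transcription start. Capitals mark matches on either strand to a loose form of the NRF1 (nuclear respiratory factor 1) motif, which is GCGC followed by A, any base and GCGC again, to CCGGAAG, the core bound by ETS factors such as GABP, and to CCAAT, the box bound by NF-Y.
Sdha, chr13:74350241-74350490, minus strand: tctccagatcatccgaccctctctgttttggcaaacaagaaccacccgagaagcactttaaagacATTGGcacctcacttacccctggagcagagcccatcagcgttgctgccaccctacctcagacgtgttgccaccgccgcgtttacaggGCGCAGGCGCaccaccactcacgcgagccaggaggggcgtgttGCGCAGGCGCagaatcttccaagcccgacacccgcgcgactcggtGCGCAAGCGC
Sdhb, chr4:140961021-140961270, plus strand: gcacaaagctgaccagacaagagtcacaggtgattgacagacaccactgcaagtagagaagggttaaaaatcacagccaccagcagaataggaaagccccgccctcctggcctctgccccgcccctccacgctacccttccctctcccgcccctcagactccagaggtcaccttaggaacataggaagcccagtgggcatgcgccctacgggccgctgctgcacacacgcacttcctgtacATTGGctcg
Sdhd, chr9:50603850-50604099, minus strand: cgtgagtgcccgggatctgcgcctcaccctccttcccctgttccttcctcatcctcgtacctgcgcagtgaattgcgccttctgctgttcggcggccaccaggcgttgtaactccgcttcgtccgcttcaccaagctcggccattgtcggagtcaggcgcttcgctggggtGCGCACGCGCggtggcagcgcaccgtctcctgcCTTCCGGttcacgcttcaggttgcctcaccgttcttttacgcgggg
The *Sdha* window holds 3 loose NRF1 matches and 1 CCAAT match, that of *Sdhb* 1 CCAAT match, and that of *Sdhd* 1 loose NRF1 and 1 ETS match. No motif is common to the 3 windows, and no window is shown for *Sdhc*, so this does not cover the whole complex.

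Over the family, promoter windows from 250 bases before to 50 after the start were found for 70 of the 87 members. Past the start, beyond the printed windows, these also hold an ETS match in *Sdhb* at position 6 and a loose NRF1 match in *Atp5g3* at position 12. The strict NRF1 motif, GCGC followed by AT and GCGC, was in 5 of the 70 (7.14%), against 1.07% of 27025 genes with a window, and its loose form, which includes it, in 17 (24.3%) against 5.19%. The ETS core was in 17 (24.3%) against 9.93%, CCAAT in 31 (44.3%) against 41.1% and TATAAA in 8 (11.4%) against 15.7%. The median GC content of the windows was 57.7% in members and 52.7% in all genes, and its part in these shares was not tested. The NRF1 forms gave opposite directions. Measured members with the strict motif had a median log2 ratio of 0.022 (5 genes) and those without it -0.028 (63 genes), while members with the loose form had -0.061 (17 genes) and those without it -0.00072 (51 genes). The medians were 0.000097 with the ETS core (17 genes) and -0.031 without it (51 genes). With CCAAT the median was -0.047 (30 genes) and without it -0.0058 (38 genes), and with TATAAA 0.046 (6 genes) and without it -0.031 (62 genes). The medians are descriptions, with no test.

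Complex III, the cytochrome bc1 complex, had 9 measured members, 4 on the higher side and 5 on the lower. Their median was -0.023, and 0.0093 with the median over probes. *Uqcr11*, a small subunit, had 24628 in the plus IL-6 culture and 22468 in the GM-CSF only culture (0.13 ± 0.043). *Uqcrc2*, a core protein averaged over 9 spots, had 14157 with IL-6 and 13784 without (0.039 ± 0.014). Its partner *Uqcrc1* had 3850 with IL-6 and 3913 without (-0.023 ± 0.053), and 0.058 with normexp. *Uqcrfs1*, the Rieske iron-sulfur protein, had 11446 with IL-6 and 12261 without (-0.099 ± 0.043), and *Cyc1*, cytochrome c1, 9996 with IL-6 and 9932 without (0.0093 ± 0.043). *Uqcr10*, a small subunit, had -0.096 on its brightest probe and 0.045 and 0.098 on its other probes. *Cycs*, the mobile cytochrome c that links complexes III and IV, had 14781 with IL-6 and 14095 without (0.069 ± 0.043), and -0.076 on its other measured probe.

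Complex IV, cytochrome c oxidase, had 15 measured members, 10 higher and 5 lower with IL-6. By comparison, 43.8% of all measured genes and 40% of bright genes were higher. The median of complex IV was 0.025, smaller than the median technical SD of the members, 0.043. It lay between 0.0046 and 0.061 over the alternatives, which all rest on the same 2 arrays. Several nuclear subunits of this complex come as a general form and a form typical of other tissues. *Cox6a2*, the heart and muscle form, was 1.29-fold higher, at 702.4 in the plus IL-6 culture and 546.0 in the GM-CSF only culture (0.36 ± 0.071), on 1 probe in row 20 of the array. The general form *Cox6a1* had 130516 with IL-6 and 139508 without (-0.096 ± 0.043). The muscle form *Cox7a1* had 764.7 with IL-6 and 691.4 without (0.15 ± 0.071; 0.27 with normexp), the testis form *Cox6b2* 704.5 with IL-6 and 664.4 without (0.085 ± 0.071), and the lung form *Cox4i2* 505.1 with IL-6 and 504.8 without (0.00087 ± 0.071). These 4 tissue forms had a median of 0.11, and without them complex IV had 6 members higher and 5 lower with a median of 0.0046. The 3 further tissue forms, *Cox7b2*, *Cox8b* and *Cox8c*, were not well above background on either array.

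The general forms lay on both sides of 0. *Cox4i1*, which binds the core of the oxidase, had 73415 in the plus IL-6 culture and 72165 in the GM-CSF only culture (0.025 ± 0.043), and *Cox7a2* 20035 with IL-6 and 19971 without (0.0046 ± 0.043). With normexp these were -0.020 and -0.022. *Cox6b1* was 1.11-fold higher, at 6723 with IL-6 and 6076 without (0.15 ± 0.053). *Cox8a* had 107510 with IL-6 and 98681 without (0.12 ± 0.043), and its 2 probes differed by 0.0065. *Cox5a* had 51844 with IL-6 and 56551 without (-0.13 ± 0.043), on a probe in a crowded area of the array, and -0.043 with normexp. *Cox7a2l*, described as a supercomplex factor, had 52985 with IL-6 and 57833 without (-0.13 ± 0.043), and its 3 probes ran from -0.16 to -0.089. *Cox7c* is uncertain, with 3 probes from -0.29 to 0.078, of which the lowest was dim. *Ndufa4*, named for complex I and found in complex IV, had 7949 with IL-6 and 8103 without (-0.028 ± 0.043), and moving it to complex IV left the median of complex IV at 0.015. Its isoform *Ndufa4l2* was well above background on the plus IL-6 array only, at 21.4 there and 15.1 in the GM-CSF only culture. These dim signals were 1.42-fold apart (0.51 ± 0.25).

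ATP synthase had 17 measured members, 9 on the higher side and 8 on the lower. Their median of 0.000097 was -0.045 with normexp and 0.013 with quantile normalization. In the catalytic F1 part, the alpha subunit gene *Atp5a1* had 26708 in the plus IL-6 culture and 27889 in the GM-CSF only culture (-0.062 ± 0.043), and the beta subunit gene *Atp5b* 69741 with IL-6 and 65749.5 without (0.085 ± 0.043). The 5 measured F1 genes had a median of 0.017 and a range from -0.075 to 0.085. The 4 peripheral stalk genes had a median of -0.043. Among them *Atp5h* had 50422 with IL-6 and 55236 without (-0.13 ± 0.043; -0.047 on its other probe). *Atp5l*, a membrane subunit, had 0.025 on its brightest probe and from -0.13 to -0.045 on the other 4.

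*Atp5g1*, *Atp5g2* and *Atp5g3* encode the same mature c subunit, which forms the rotor ring, behind different import sequences. *Atp5g1* was 1.13-fold higher, at 31569 in the plus IL-6 culture and 27843 in the GM-CSF only culture (0.18 ± 0.043). *Atp5g2* had 68831 with IL-6 and 67780.2 without (0.022 ± 0.043; -0.0034 on its other probe). *Atp5g3* was 1.08-fold lower, at 38598 with IL-6 and 41731 without (-0.11 ± 0.043), on a probe in the outermost column of spots, and -0.033 with normexp. Their promoters are shown because genes for the same protein lay on both sides of 0, again as 250 bases before the start from RefSeq on GRCm38.p6 with the same capitals.
Atp5g1, chr11:96075632-96075881, minus strand: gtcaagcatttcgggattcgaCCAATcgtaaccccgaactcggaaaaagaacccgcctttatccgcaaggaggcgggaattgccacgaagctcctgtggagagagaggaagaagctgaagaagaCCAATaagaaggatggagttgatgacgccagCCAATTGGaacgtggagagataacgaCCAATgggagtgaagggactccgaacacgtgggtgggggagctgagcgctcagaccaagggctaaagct
Atp5g2, chr15:102671048-102671297, minus strand: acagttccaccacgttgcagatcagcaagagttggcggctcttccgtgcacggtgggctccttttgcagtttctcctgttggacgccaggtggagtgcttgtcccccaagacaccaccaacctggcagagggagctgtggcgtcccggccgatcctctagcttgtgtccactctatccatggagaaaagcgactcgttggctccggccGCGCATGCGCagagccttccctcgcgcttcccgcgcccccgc
Atp5g3, chr2:73911327-73911576, minus strand: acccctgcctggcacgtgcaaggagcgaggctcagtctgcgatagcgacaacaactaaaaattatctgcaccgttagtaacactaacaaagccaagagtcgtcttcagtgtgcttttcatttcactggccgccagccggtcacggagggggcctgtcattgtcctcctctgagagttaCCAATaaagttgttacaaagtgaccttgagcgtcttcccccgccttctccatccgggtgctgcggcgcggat
The *Atp5g1* window holds 5 CCAAT matches, of which 1 pair overlaps on opposite strands, that of *Atp5g2* 1 NRF1 match in the strict form and that of *Atp5g3* 1 CCAAT match. A match is a description of the letters and not a bound site.

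**Figure D3:**
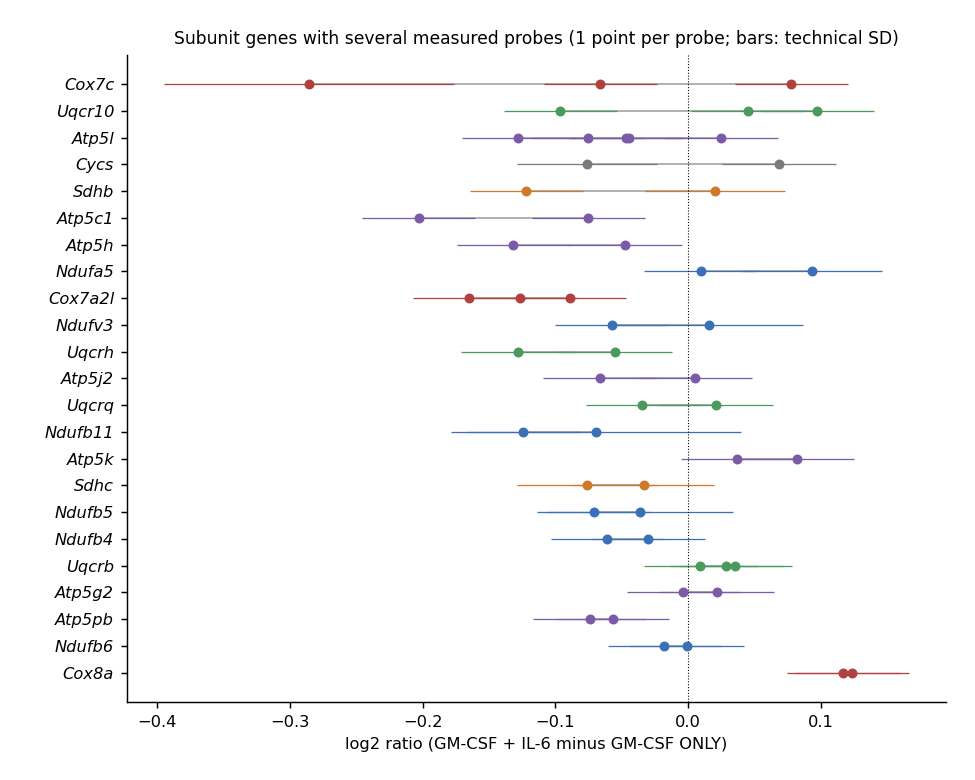
Log2 ratio of each measured probe of the 23 subunit genes with several probes, with technical SD bars, ordered by the range over probes. *Cox7c* spans 0.36 at the top and *Cox8a* 0.0065 at the bottom, and in 9 genes the probes lie on both sides of 0.

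Log2 ratios were also compared by the position of the probes on the array. Of the 7 members past 1.1-fold, 4 had probes in the first 48 rows of spots, a split chosen after the values were seen. Those rows held 15 of the 83 members, and the other rows held 68, of which 3 were past 1.1-fold. Among other genes of like signal, 116 of 398 in the first 48 rows and 555 of 2340 in the rest were past 1.1-fold. The SD over members was 0.15 in the first 48 rows, 0.11 in them without *Cox6a2*, and 0.075 in the other rows. Other genes of like signal had an SD of 0.13 in the first 48 rows and 0.12 in the rest. *Cox5a*, *Ndufa12*, *Ndufa6* and *Uqcrc1* lay in areas crowded with spots that differ between the arrays, and *Atp5g3* and *Ndufa7* in the outermost columns. With those areas and the outermost spots left out, 77 members gave a median of -0.011, with 36 higher and 41 lower. The part of position in single log2 ratios was not tested.

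**Figure D4:**
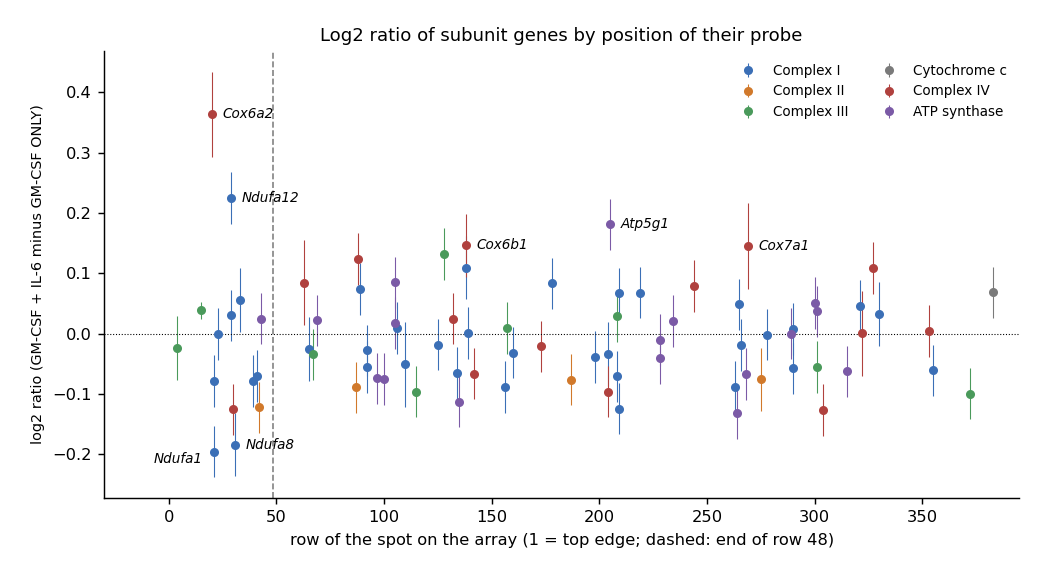
Log2 ratio of the 83 subunit genes against the row of their probe on the array, with technical SD bars and colours by complex. The 7 named genes are those past 1.1-fold, and 4 of them lie left of the dashed line at the end of row 48.

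Lists of other mitochondrial genes, which build, feed or regulate the chain, also had medians near 0. The SDs over their genes were a little larger than over the subunits. Many of these genes were dimmer than the members, and dim probes scatter more. The spreads were not compared at like signal. SDs over genes ran from 0.094 (citric acid cycle) to 0.13 (regulators of mitochondrial biogenesis), against 0.091 over the members. For the counts here and below, 43.8% of all measured genes were higher and 56.2% lower, with 6.36% and 5.97% past 1.2-fold. Of 44 measured assembly factors, 24 were higher with IL-6 and 20 lower, 0 of them past 1.2-fold, and the median was 0.0097 (0.0030 with normexp). The complex I assembly factor *Timmdc1* had 6120 in the plus IL-6 culture and 5120 in the GM-CSF only culture (0.26 ± 0.053), the copper chaperone *Cox19* 0.26, *Sdhaf2*, which adds the flavin to *Sdha*, -0.18 and *Uqcc3* -0.13. Citric acid cycle and related genes were higher in 14 of 23, with a median of 0.051 (0.0088 with normexp), from *Mdh1* at -0.15 and *Pdhb* at -0.12 to *Suclg2* at 0.15 ± 0.11 and the dim *Aco1* at 0.18 ± 0.25. Genes of protein import and inner membrane organization were higher in 20 of 28, with a median of 0.048, among them *Timm50* (1561 with IL-6, 1326 without, 0.24 ± 0.053) and *Tomm40* at 0.21, while *Timm10b* had -0.16 and *Tomm70a* -0.12. Mitochondrial ribosomal protein genes were split, 39 higher and 38 lower, with a median of 0.0037 (-0.0025 with normexp), from *Mrpl1* at -0.23 and *Mrpl44* at -0.14 to *Mrpl17* at 0.23 and *Mrpl35* at 0.42 (209.0 with IL-6, 156.1 without, ± 0.11).

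Among 23 regulators of mitochondrial biogenesis, 9 were higher with IL-6 and 14 lower (median -0.039, and -0.0061 with normexp). The coactivator gene *Ppargc1b* had 0.31 ± 0.25 at low signal and the helicase gene *Twnk* 0.17 ± 0.11, while *Polg2*, the accessory subunit of the mitochondrial DNA polymerase, had -0.20 ± 0.071 and *Nfe2l2* -0.16 ± 0.053. For the motifs searched above, named after their values were seen, *Nrf1* had 1351 with IL-6 and 1467 without (-0.12 ± 0.053), while the GABP subunits *Gabpa*, at 759.5 with IL-6 and 772.5 without (-0.025 ± 0.071), and *Gabpb1*, at 2239.7 with IL-6 and 2141 without (0.065 ± 0.053), lay on opposite sides of 0. Fatty acid oxidation and electron transfer genes were lower in 10 of 15, with a median of -0.030 (-0.0039 with normexp), from *Acadvl* at -0.19 and *Cpt2* at -0.10 to *Acads* at 0.13 and *Etfb*, a subunit of the electron transfer flavoprotein, at 0.24. Of 21 carrier, uncoupling and electron donor genes, 12 were higher, with a median of 0.026 that was -0.0076 with normexp. The 1 gene of this list past 1.2-fold was *Sqor*, which passes electrons from sulfide to ubiquinone, at 13205 with IL-6 and 16322 without (-0.31 ± 0.043), followed by *Coq9* at -0.17, and the highest were *Ucp1* at 0.19 ± 0.25 and *Prdx3* at 0.16.

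**Figure D5:**
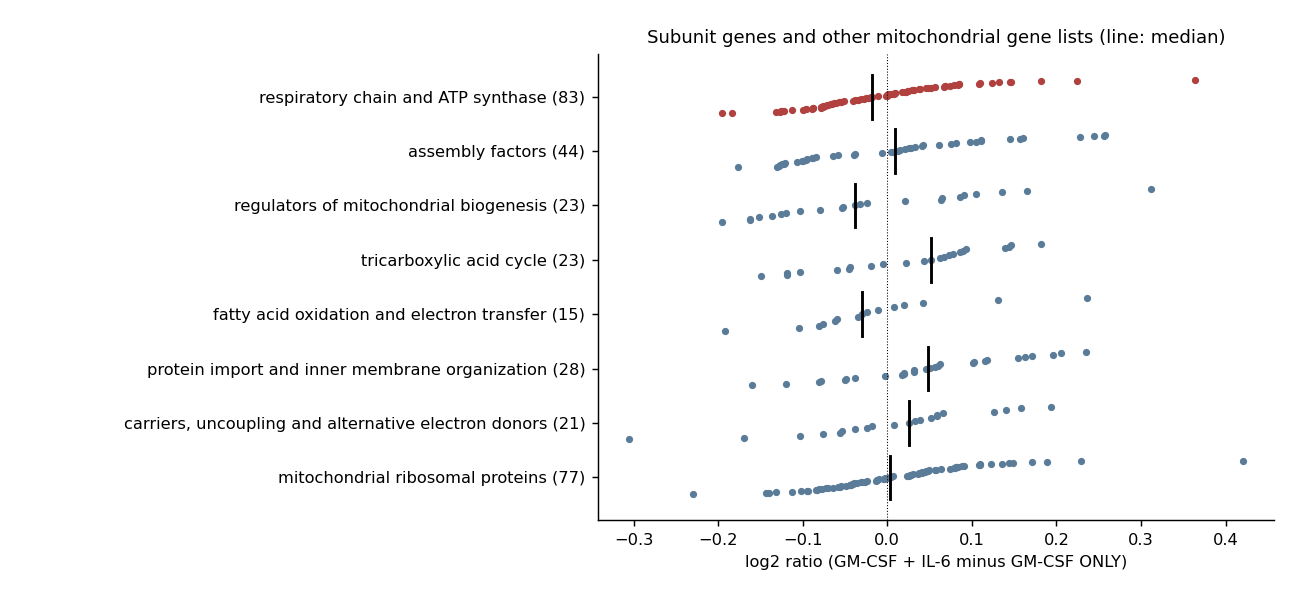
Log2 ratio of each measured gene in the respiratory chain and ATP synthase set (red) and in 7 other mitochondrial gene lists (blue), with the number of genes in brackets and the median as a line. List medians lie between -0.039 and 0.051.

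Markers of the cultured cells were checked in the same way, beside the 43.8% of all measured genes that were higher and 56.2% lower. All 10 myeloid markers were measured on both arrays, 6 higher and 4 lower with IL-6, from *Csf1r*, the M-CSF receptor gene, at -0.25 ± 0.043 to the neutrophil gene *S100a9* at 0.14 ± 0.043. Their median was 0.082, against 0.030 with quantile normalization, 0.025 in the authors' values and 0.038 with normexp. Mast cell and basophil markers were higher in 7 of 7, with a summed signal of 43289.6 in the plus IL-6 culture and 37992 in the GM-CSF only culture (median 0.20, *Tpsb2* at 0.42 ± 0.053). Erythroid markers summed to 357.2 with IL-6 and 289.4 without over the 3 of 8 that were measured, and the globin gene *Hba-a1* had 163.9 with IL-6 and 101.8 without. The 6 B cell markers summed to 24108 with IL-6 and 24665 without (median -0.049, and 0.0091 with normexp). The 4 measured of 6 T and NK cell markers summed to 9509 with IL-6 and 8831 without (median 0.021, and 0.073 with normexp), and 5 megakaryocyte markers to 31020.3 with IL-6 and 33765 without (median -0.12). These last sums are mostly the signal of 1 bright probe each, *Cd79b*, *Nkg7* and *Pf4*, and *Cd79a* (0.19), *Cd3d* (-0.22) and *Itga2b* (0.12) lay the other way from their lists' sums. The part of these cells in the subunit values was not tested.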

How the data were processed

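Total RNA of 2 cultures, grouped by the treatment in the labels, was hybridised in 1 channel (Cy3) to 1 Agilent array each. The file headers name Agilent Feature Extraction 10.7.1.1, with which the authors made the deposited spot intensities, and show its detrending steps switched on. The authors' deposited matrix holds log2 values, and the sources used here do not give how they were normalized.

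The value used was log2 of the processed intensity minus the array's 75th percentile over 59305 non-control spots (486.2 with IL-6, 549.7 without). Outlier spots were dropped, and replicate spots were averaged. A probe was measured when at least 50% of its spots were well above background (57.9% of probes with IL-6, 59.1% without), and each gene took its measured probe with the highest mean level. No spot was saturated. Signals in the text are on a common scale, the geometric mean of both percentiles. Where 1 array was below background, the dim side took its own signal or the array's lowest signal well above background, whichever was larger. The number of arrays limits the precision. Technical SDs came from 266 probes with at least 5 usable spots, in 6 bins of level.

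Accessions were named through a RefSeq table of GRCm38.p6: 26577 of 28109 RefSeq probes matched 1 symbol. The rule fits 109 symbols of that table, of which 22 (19 of them pseudogenes) had no probe matched here. Cross-hybridisation to pseudogenes was not tested.

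Members and lists were chosen with earlier results of these data known. Named members were the 2 highest and 2 lowest of each complex, core subunits, isoform sets, the ATP synthase inhibitor (not among the matched symbols), genes past 2-fold or seen on 1 array and the 5 whose probes disagreed most. From each mitochondrial list the 2 highest and 2 lowest were named, and marker lists are summarised. *Ndufa6* and *Ndufa7* are named for their position. Crowded areas were 9 tiles of 16 by 12 spots with at least 4 region-named or unnamed probes 2-fold apart. Alternatives were other normalizations and sources, filters on dim probes, outlier spots, probe choice and position. Normalizations used limma 3.58.1 (R 4.3.3), and other steps pandas 2.3.3, numpy 2.4.6 and matplotlib 3.10.9 in Python 3.11.15.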

Additional observations from a re-analysis of the deposited data

How the results depend on the processing

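The result that the members centred near 0 held in all 10 alternatives, with their median between -0.021 and -0.0014, and no member reached 2-fold in any of them. Between 35 and 42 members were higher and between 41 and 48 lower. In 6 scalings and sources, the reported one included, 26 members were above 0 in each, 32 below 0 in each and 25 changed sign. Among recomputed values of named members, 355 moved by less than the technical SD and 21 by more, 17 of these under normexp and 4 when probes were combined by their median, and no value past 1.2-fold changed sign. Normexp starts from mean signals without the detrending of the processed ones. It gave 3 members at least 1.2-fold higher, *Cox6a2*, *Cox7a1* and *Ndufa12*, and a median of -0.045 for ATP synthase. Its medians were 0.038 for myeloid, 0.20 for erythroid, 0.0091 for B cell and 0.073 for T and NK cell markers, and the cause was not tested. The myeloid marker median was 0.030 with quantile normalization and 0.025 in the authors' values. Without a filter on dim probes 2 members were 1.2-fold higher, the second being *Ndufa4l2*, and T and NK cell markers had a median of 0.095. The median over its 2 measured probes put *Cycs* at -0.0038. Counting *Ndufa4* in complex IV or leaving out tissue forms, both chosen after seeing the data as was the split by rows, moved no complex median by more than the technical SD. No paired analysis was possible because there was a single array for each culture. Signal over background limits dim genes: technical SDs ran from 0.043 to 0.25 over the bins of level.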
